A study of Mus musculus with 4 samples.

Results

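Eomes or Gzmk positive Ccl5-high T cells were 249 of the 19960 cells kept from 3 mixed bone marrow chimeras. They were chosen by raw counts of unique molecular identifiers (UMIs), each of which stands for 1 captured transcript. A cell had at least 3 UMIs of Ccl5, none of Foxp3, under 3 each of Il17a, Il22 and Penk, and at least 1 UMI of Eomes or of Gzmk. Ccl5-high cells that met the same limits but held no UMI of Eomes or Gzmk numbered 1949 and served as the cells for comparison. The values of these 7 genes chose the cells, so they are given below as description, without a test.

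CCL5 is a chemokine that activated and memory T cells store or release, and it attracts other leukocytes. EOMES is a T-box transcription factor, a relative of T-bet, known for its part in cytotoxic lymphocytes. Granzyme K, the product of Gzmk, is a serine protease of cytotoxic granules, made mainly by CD8 T cells and by some memory and cytotoxic CD4 T cells. CD4 T cells with these transcripts are often compared with T helper 1 (Th1) cells, which make interferon gamma, and with type 1 regulatory cells.

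The cells were sorted as live CD45+CD3+CD4+ cells from the lamina propria, the layer beneath the epithelium, of the small intestine. The hosts were irradiated Rag1-/- mice, which lack their own T and B cells. They received 10000000 bone marrow cells, 50% of them wild type with the CD45.1 mark and 50% Bcl3-/- with the CD45.2 mark, and were examined after 16 weeks. CD45.1 and CD45.2 are 2 forms of the same surface protein, encoded by Ptprc, and barcoded antibodies read them in each droplet. A donor was called at 10 or more tag UMIs and a tag ratio of at least 4-fold. All recipients form a single group, and each comparison lies inside an animal. The age of the animals and the part of Bcl3 that was deleted were not given in the labels. Strain differences near Ptprc, and any near Bcl3, go with the donor mark and cannot be told apart from the genotype.

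Recipients 1, 2 and 4 gave 9301, 9244 and 1415 kept cells with medians of 5932, 5782.5 and 5836 UMIs. Wild type CD45.1 cells were few, 736, 851 and 102, against 8398, 8198 and 1289 CD45.2 cells. Recipient 3, whose barcodes hold mixed RNA, was left out, and its 5 members stand in the closing section. Bcl3 (chr7:19808462-19822770, minus strand, mm10) was higher, not lower, in the CD45.2 members, which carry the label Bcl3-/-. It had 13.7 and 39.0 CPM (UMIs of a gene scaled to a common total per sum) in CD45.1 members of recipients 1 and 2, and 68.3 and 63.8 CPM in CD45.2 members, a log2 difference of 1.36 (SE 0.40, edgeR adjusted p = 0.025; not under 6 of 11 alternatives). A 3' tag outside a deleted part would not show the deletion, so Bcl3 RNA does not check the label, and the cells are called CD45.2 cells below.

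The rule left a graded edge. Among cells within the limits on Foxp3, Il17a, Il22 and Penk, 0.528% of those with 0 UMIs of Ccl5 held Eomes or Gzmk. With 2 UMIs the share was 2.0% (9 of 451 cells), with 3 UMIs 3.02% (8 of 265) and with 6 or more 14.1% (227 of 1606). The share thus had no step at the minimum of 3 UMIs. The limits on Foxp3, Il17a, Il22 and Penk removed 36 cells that otherwise met the rule. Of all 106 cells with an Eomes UMI, 64 (60.4%) were members, and of the 322 with a Gzmk UMI, 236 (73.3%).

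**Figure D1:**
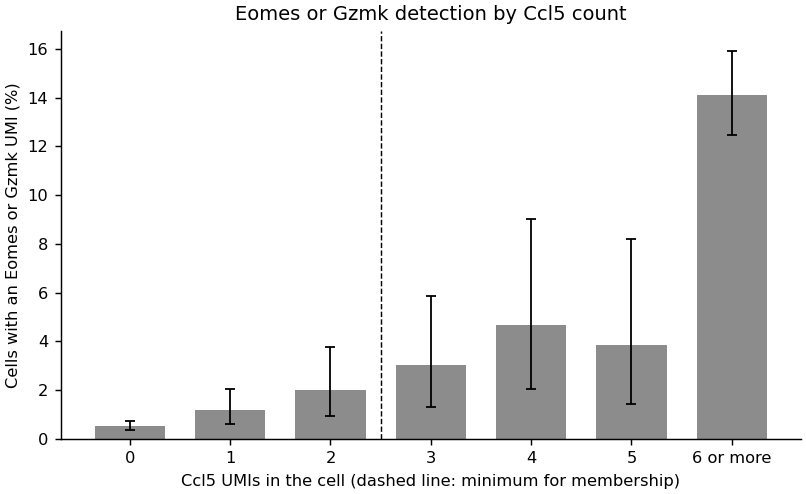
Share of cells with at least 1 UMI of Eomes or Gzmk (y axis, %) among cells grouped by their Ccl5 UMIs (x axis), recipients 1, 2 and 4 pooled. Only cells within the limits on Foxp3, Il17a, Il22 and Penk are counted. Bars carry exact Clopper-Pearson 95% intervals for counting error. The share rose from 0.528% at 0 UMIs to 3.02% at 3 UMIs and 14.1% at 6 or more, with no step at the dashed line.

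Most members were found through Gzmk. Gzmk alone was detected in 185 members, Eomes alone in 13 and both in 51. In 120 members (48.2%) the choice rested on a single UMI of Eomes or Gzmk, so some cells for comparison would have been members at greater depth. Free RNA in the droplets gives such UMIs too. With each cell thinned to 3000 UMIs, Eomes and Gzmk were detected in 0.144% and 0.201% of Foxp3 positive cells and in 17.6% and 61.1% of members. In Ccr7 positive cells without Ccl5 they were detected in 0.585% and 0.065%. In cells with at least 3 Il17a UMIs the shares were 0.019% and 0.224%. The rule itself makes the shares in members higher, so they cannot show how many members were chosen through free RNA. The median depth was 6362 UMIs in members, 6269 in the cells for comparison and 5579 in Foxp3 positive cells.

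The members carried T cell transcripts. Summed over 11 T cell identity genes, recipients and donors with enough cells had 7972 to 8702 CPM in members and 7534 to 7795 CPM in the cells for comparison. Cd4 was detected in 85.5% of members. Of 8 NK and innate lymphoid markers, Ncr1, Klri2, Klra4 and Klra8 were at 0 in members of recipients 1 and 2. The other 4, Il7r and Eomes among them, were detected, and the list summed to 978 to 1156 CPM. It summed to 953 to 1042 CPM in the cells for comparison and 440 to 777 CPM in the other cells. Klrd1 was detected in 9.24% of members and 3.44% of the cells for comparison. Of 7 NKT and MAIT markers, Zbtb16, Trav11, Trav11d and Trav1 were at 0 in members of recipients 1 and 2. The other 3 were detected, and that list summed to 48.1 to 69.7 CPM, against 43.3 to 67.7 CPM in the cells for comparison.

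Transcripts of other cell types were present at low levels. The 2 CD8 genes, Cd8a and Cd8b1, summed to 19.8 to 50.3 CPM in members and 4.64 to 36.0 CPM in the cells for comparison. In recipient 4, 2 of the 3 CD45.1 members held a CD8 transcript. Of 7 gamma-delta T cell markers, 5 were detected, with sums of 139 to 490 CPM in members and 225 to 465 CPM in the cells for comparison, while Trdv4 and Sox13 were at 0. Of 8 B and plasma cell markers, 5 were detected, at 55.3 to 143 CPM in members and 47.4 to 489 CPM in the cells for comparison, while Cd79a and Ms4a1 were among those at 0. Of 8 epithelial and stromal markers, 3 were detected in members, at 30.8 to 69.7 CPM against 35.2 to 89.6 CPM in the cells for comparison, while Krt8, Krt19, Vil1, Col1a1 and Col3a1 were at 0. Of 8 myeloid markers, 5 were detected, at 0 to 48.1 CPM and 10.8 to 42.9 CPM, while Csf1r, Itgax and Fcgr3 were at 0 in members. Barcodes with a CD8 transcript were left out as an alternative; the part of the other cell types in the results was not tested.

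Members made up a larger share of CD45.1 than of CD45.2 cells in every recipient. In recipient 1 the share was 8.02% of CD45.1 cells (59 of 736, exact 95% interval 6.16 to 10.2) and 0.750% of CD45.2 cells (63 of 8398, 0.577 to 0.959). In recipient 2 it was 8.23% (70 of 851, 6.47 to 10.3) and 0.476% (39 of 8198, 0.339 to 0.650). In recipient 4 it was 2.94% (3 of 102, 0.611 to 8.36) and 0.465% (6 of 1289, 0.171 to 1.01). The intervals of the donors did not overlap in recipients 1 and 2 and did in recipient 4; they cover counting error only. CD45.2 cells were 51.6%, 35.8% and 66.7% of the members with a donor call and 91.9%, 90.6% and 92.7% of all such cells.

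As a log2 odds ratio of CD45.2 over CD45.1, the difference was -3.53, -4.22 and -2.80 in recipients 1, 2 and 4, with a mean of -3.51 ± 0.712 (SD, n = 3). All 3 recipients had the same sign, and the exact two-sided sign-flip test gave p = 0.25, the smallest value that 3 animals allow. The difference had 2 steps. Ccl5-high cells as a whole, with or without Eomes and Gzmk, were less frequent among CD45.2 cells, with a mean log2 odds ratio of -1.44 ± 0.252 (SD, n = 3). Within them, members made up 35.1%, 31.0% and 27.3% of CD45.1 and 7.27%, 4.80% and 9.23% of CD45.2 cells. The mean log2 odds ratio of this second step was -2.61 ± 0.631 (SD, n = 3), again with the exact p at its floor of 0.25. Without barcodes that held a CD8 transcript, the means were -3.09 ± 1.33 and -2.14 ± 1.4 (SD, n = 3). Recipient 4, left with 1 CD45.1 member, then stood at -1.62 among all cells and -0.61 among Ccl5-high cells, while recipients 1 and 2 stood at -3.42 and -4.22 among all cells. Lower Eomes and Gzmk in all CD45.2 cells of these mice was known when the cells were chosen, so the direction is not independent evidence.

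**Figure D2:**
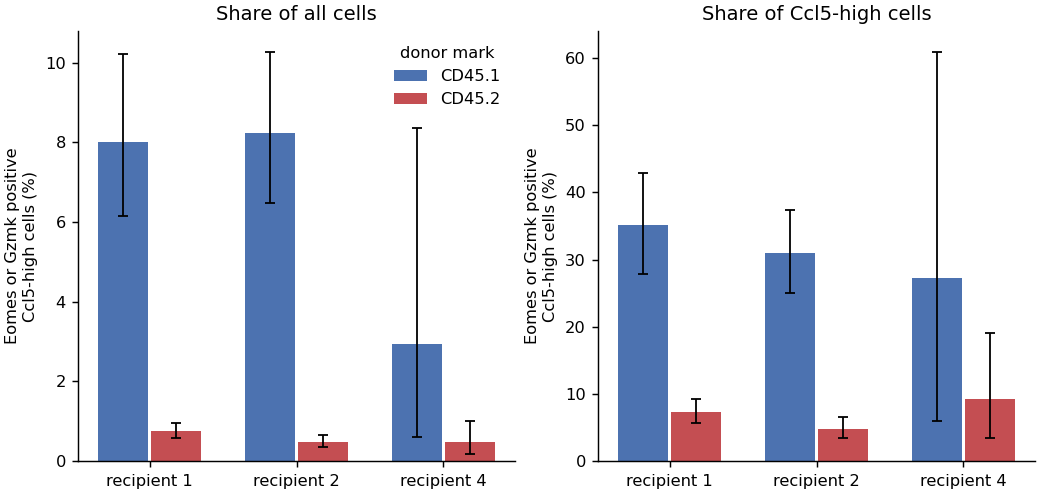
Eomes or Gzmk positive Ccl5-high cells as a percentage of all cells with a donor call (left) and of Ccl5-high cells (right), by recipient and donor mark, with exact Clopper-Pearson 95% intervals for counting error. The CD45.1 bars lie above the CD45.2 bars in all 3 recipients, at 8.02% against 0.750% of all cells in recipient 1.

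The share of members with Eomes was set side by side for the donors, without a test. Eomes was detected in 35.6% of CD45.1 and 11.1% of CD45.2 members of recipient 1, and in 32.9% and 17.9% in recipient 2. The exact 95% intervals were 23.6 to 49.1 and 4.59 to 21.6 in recipient 1, and overlapped in recipient 2, at 22 to 45 and 7.54 to 33.5. After thinning to 3000 UMIs the shares were 24.6% and 8.33%, and 21.4% and 15.4%, with overlapping intervals in both recipients. In recipient 4 they were 1 of 3 and 3 of 6 cells. Eomes had 137 and 139 CPM in CD45.1 members and 43.3 and 50.3 CPM in CD45.2 members of recipients 1 and 2, while Gzmk had 348 and 374 CPM and 363 and 232 CPM. These are unscaled sums of genes that chose the cells and carry no test.

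Gene expression was compared on raw counts summed per recipient and donor, where each sum held at least 10 cells. This kept recipients 1 and 2, so members and the cells for comparison were set against each other in 4 recipient-donor pairs. Of 6247 genes tested, 61 (0.976%) passed an edgeR adjusted p under 0.05, 18 higher (0.288%) and 43 lower (0.688%) in members. Members also held more Ccl5, with medians of 43, 27, 26 and 21 UMIs per cell against 22, 9, 10 and 8, and among cells with at least 10 Ccl5 UMIs 24 genes passed, of which 22 were among the 61. Without recipient 2, 26 genes passed, and without the pair as a block 1 gene. Leaving out recipient 4 or asking for at least 20 cells per sum removed no sum, so these alternatives, counted below, repeat this fit. Values below are CPM after edgeR's TMM scaling, and log2 differences are members minus cells for comparison.

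Of 20 homing receptors and integrins, 14 were tested, 2 were higher in members and 1 lower, with a median log2 difference of -0.01 against 0.00 over all genes. Itga4 (chr2:79255426-79333123, plus strand) encodes the alpha 4 chain that pairs with beta 7 or beta 1 to bind gut and inflamed endothelium. It had 516 CPM in members and 283 CPM in the cells for comparison among CD45.1 cells of recipient 1, and 227 and 146 CPM among CD45.2 cells. In recipient 2 it had 491 and 255 CPM, and 307 and 142 CPM. Members were higher in 4 of 4 pairs, by 0.88 on the log2 scale (SE 0.10, adjusted p = 3.6e-06). Itga4 was among the genes proposed as markers of these cells from the same data.

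Itgb7, the beta 7 partner of ITGA4, was lower in members (-0.47, SE 0.11, adjusted p = 0.021), from 179 against 224 CPM to 240 against 317 CPM, and did not pass under 8 of 19 alternatives. Ccr9, which guides T cells to the small intestine, stood at -0.01 (SE 0.11, adjusted p = 1).

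Of 16 cytotoxic granule genes, 13 were tested and 2 were higher in members, with a median of 0.24. Nkg7, a granule membrane protein, had 1271 and 1136 CPM in CD45.1 members and cells for comparison of recipient 1, 1071 and 679 CPM in CD45.2 cells, and 1196 and 876 CPM and 1035 and 601 CPM in recipient 2. It was higher in 4 of 4 pairs (0.51, SE 0.08, adjusted p = 8.0e-04). Gzma, granzyme A, passed (0.93, SE 0.11) with 3 of 4 pairs higher, but its direction turned under 3 alternatives, given in the closing section. In CD45.2 members of recipient 1, 1 cell held 52.3% of the Gzma UMIs. Gzmb, granzyme B, did not pass (0.52, SE 0.17, adjusted p = 0.28): it was lower in CD45.1 members of recipient 1 (306 against 673 CPM) and higher in the other pairs. It passed under 5 of 19 alternatives.

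Among 8 chemokines, 4 were tested and Xcl1, which attracts cross-presenting dendritic cells, was higher in members (0.46, SE 0.11, adjusted p = 0.037; 172 against 159 to 495 against 266 CPM). It did not pass under 10 of 19 alternatives. Ccl4 stood at 0.45 (SE 0.18, adjusted p = 0.44), and passed under 6 of 19 alternatives.

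The 17 NK receptor and SLAM family genes had 1 of 8 tested genes higher and a median of 0.25. That gene was Sh2d1a, which encodes SAP, the adaptor of SLAM receptors. It had 141 and 95.3 CPM, 143 and 102 CPM, 213 and 101 CPM, and 154 and 84.3 CPM in the 4 pairs (0.75, SE 0.13, adjusted p = 0.003). Slamf7, the other proposed marker, did not differ by the test (0.01, SE 0.16, adjusted p = 1), with 111, 98.0, 116 and 51.2 CPM in members and 137, 79.9, 93.8 and 73.1 CPM in the cells for comparison. The Slamf7 levels of the 2 kinds of cell overlapped. Outside them Slamf7 had 10.4 to 27.4 CPM in recipients 1 and 2, on the unscaled sums on which members had 50.3 to 106 CPM.

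Of 17 genes of the TOX and TCF1 axis, 12 were tested, 2 were higher and 1 lower, with a median of -0.11. Nr4a2, an orphan nuclear receptor induced by antigen receptor signals, had 284 and 164 CPM, 210 and 159 CPM, 181 and 107 CPM, and 240 and 108 CPM (0.75, SE 0.12, adjusted p = 0.001). Tox, a chromatin factor of chronically stimulated T cells, was higher by 0.72 (SE 0.17, adjusted p = 0.043), and Bhlhe40, a cofactor of cytokine production in T cells, lower (-0.34, SE 0.08, adjusted p = 0.029). Tox did not pass under 9 of 19 alternatives and Bhlhe40 under 8.

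Of 20 type 1 regulatory and coinhibitory genes, 14 were tested, 2 were higher and 1 lower, with a median of 0.13. Pdcd1, which encodes the coinhibitory receptor PD-1, had 18.9, 28.7, 31.4 and 27.6 CPM in members and 9.81, 10.6, 1.98 and 12 CPM in the cells for comparison (1.62, SE 0.37, adjusted p = 0.028). The ranges did not overlap, at low levels, in a gene that was named because it had passed. Il10ra, the receptor chain for interleukin 10, was higher as well (1.52, SE 0.34, adjusted p = 0.025), and Icos, a costimulatory receptor, was lower (-0.42, SE 0.10, adjusted p = 0.032). Cd27, a costimulatory receptor kept on naive and memory cells, had 149 against 82.7 CPM and 118 against 45.4 CPM in the CD45.1 pairs, and 76.5 against 52.0 and 51.2 against 42.8 CPM in the CD45.2 pairs (0.80, SE 0.18, adjusted p = 0.021). Cd7 (0.73, SE 0.14) and the signalling adaptor Lax1 (1.06, SE 0.21) were higher in 4 of 4 pairs, and Lax1 lies within 10 Mb of Ptprc. Cd7 and Cd27 did not pass under 9 of 19 alternatives each, Icos under 8, Lax1 under 5, Pdcd1 under 6 of 15 and Il10ra under 4 of 13.

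The lower genes held a Th17-associated group. Of 12 Th17 genes, 11 were in the files, 5 were tested and 3 were lower in members, with a median of -0.86. Tmem176a and Tmem176b encode paired membrane proteins that are abundant in RORgt-dependent lymphocytes. Tmem176a had 10.8, 31.1, 12.1 and 47.2 CPM in members and 40.7, 131, 145 and 269 CPM in the cells for comparison (-2.53, SE 0.21, adjusted p = 1.9e-08). Tmem176b fell by 2.13 (SE 0.19), and Rora, a partner of RORgt that other T cells also use, by 0.71 (SE 0.10). Il17a and Il22 were capped in both kinds of cell by the rule. In the fit without those caps on the cells for comparison, the Tmem176a difference was the same in sign and call. That fit adds cells high in Il17a or Il22 to 1 side only, so it cannot show whether the fall depends on the caps.

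Of 16 cytokine receptors, 11 were tested, none was higher and 2 were lower, with a median of -0.22. Il2ra, the alpha chain of the interleukin 2 receptor, had 10.8, 14.3, 7.25 and 31.5 CPM in members and 23.8, 47.9, 57.3 and 65.5 CPM in the cells for comparison (-1.69, SE 0.30, adjusted p = 0.0023). Il18r1, a receptor through which Th1 cells respond to interleukin 18, was lower in 4 of 4 pairs (-0.73, SE 0.14, adjusted p = 0.0048). It was the 1 gene of the Th1 and T-box list (12 of 13 tested, median -0.05) that passed, while Runx3 stood at 0.14 (SE 0.10, adjusted p = 0.8). Also lower in 4 of 4 pairs were Satb1, a chromatin organiser (-1.08, SE 0.15), the protease inhibitor Serpinb1a (-1.42, SE 0.21) and the creatine kinase Ckb (-1.11, SE 0.19).

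Of 16 NF-kB family and feedback genes, 15 were tested and Nfkbiz, an atypical IkB protein like BCL3, was the 1 that passed, lower in members (-0.46, SE 0.11, adjusted p = 0.049; not under 11 of 19 alternatives). Bcl3 stood at 0.11 (SE 0.21, adjusted p = 0.96). None of 9 tested BCL2 family, 13 interferon response, 9 proliferation, 11 T cell identity or 14 dissociation and stress genes passed. Igkc, an immunoglobulin transcript of plasma cells, passed as lower with 2 of 4 pairs in each direction, and a CD45.2 sum of the cells for comparison held 328 CPM of it.

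**Figure D3:**
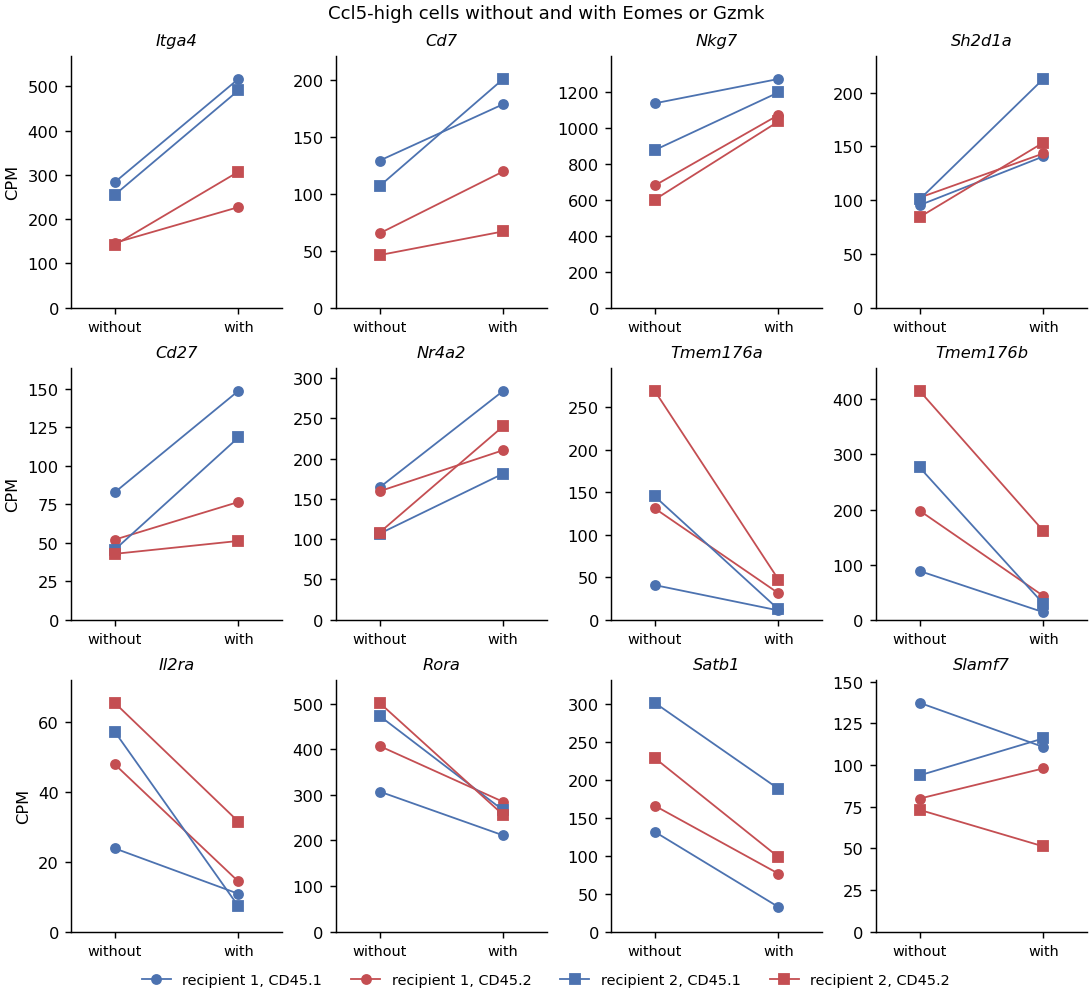
CPM after TMM scaling (y axis, from 0) of 12 genes in Ccl5-high cells without and with Eomes or Gzmk, each line joining the 2 sums of 1 recipient and donor. All 4 lines rise for Itga4, Cd7, Nkg7, Sh2d1a, Cd27 and Nr4a2 and all 4 fall for Tmem176a, Tmem176b, Il2ra, Rora and Satb1, while those of Slamf7 cross.

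Promoters were searched because EOMES belongs to a family whose members bind a shared T-box half-site. The letters GGTGTGA were searched on both strands (TCACACC on the other) in RefSeq promoters of GRCm38.p6, from 250 bases before to 50 after each start, and 1307 of 32851 promoters (3.98%) held them. Of the 18 genes higher in members, 12 had a promoter in the table and 3 of these held the letters, Itga4, Nkg7 and Xcl1. None of 31 of the 43 lower genes with a promoter did, against 3.78% of all tested genes with a promoter. The 250 bases before the start of these 3 genes, and of Gzmk, are shown 5′ to 3′ since they hold the match, in capitals; they were picked after the matches were seen.
Gzmk (chr13:113180966-113181215, minus strand): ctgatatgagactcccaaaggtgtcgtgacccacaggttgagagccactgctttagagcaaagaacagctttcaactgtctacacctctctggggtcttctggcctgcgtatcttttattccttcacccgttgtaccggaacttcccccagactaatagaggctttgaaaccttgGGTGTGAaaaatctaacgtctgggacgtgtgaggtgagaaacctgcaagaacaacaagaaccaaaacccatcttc
Itga4 (chr2:79255176-79255425, plus strand): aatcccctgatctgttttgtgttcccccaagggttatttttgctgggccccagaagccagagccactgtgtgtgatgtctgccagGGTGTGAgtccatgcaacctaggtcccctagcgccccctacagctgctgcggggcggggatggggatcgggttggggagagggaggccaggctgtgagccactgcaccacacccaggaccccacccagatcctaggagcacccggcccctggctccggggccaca
Nkg7 (chr7:43436888-43437137, plus strand): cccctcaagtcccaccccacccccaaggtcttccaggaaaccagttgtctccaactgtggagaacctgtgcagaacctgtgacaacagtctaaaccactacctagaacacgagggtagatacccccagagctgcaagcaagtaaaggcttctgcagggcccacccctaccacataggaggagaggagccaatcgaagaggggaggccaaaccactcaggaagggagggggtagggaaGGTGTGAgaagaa
Xcl1 (chr1:164935523-164935772, minus strand): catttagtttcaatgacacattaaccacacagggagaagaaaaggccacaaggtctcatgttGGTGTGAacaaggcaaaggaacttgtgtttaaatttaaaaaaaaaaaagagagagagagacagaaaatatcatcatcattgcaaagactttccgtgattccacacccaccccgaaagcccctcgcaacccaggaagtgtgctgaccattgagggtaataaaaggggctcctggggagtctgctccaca
The match began 75 bases before the start in Gzmk, 165 in Itga4, 13 in Nkg7 and 188 in Xcl1. A match is a description of these letters and no evidence of binding.

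The members of the donors were then compared with each other in recipients 1 and 2, where both had enough cells (59 and 63, and 70 and 39). Of 5305 genes tested, 196 (3.69%) passed, 75 higher (1.41%) and 121 lower (2.28%) in CD45.2 members. With 2 animals the fit has 1 residual degree of freedom, and DESeq2 called 5 genes and the fit without the recipient as a block 19. Of the genes named by rule, DESeq2 called Ifitm2, Il12rb2, Ccr9 and Maf only. Without 1 CD45.2 member of recipient 2 of high UMI count, 89 genes passed, so values per animal are given. Differences are CD45.2 minus CD45.1. The donors' members also differed in mix: Eomes was detected in 34.1% of CD45.1 and 15.7% of CD45.2 members over the 3 recipients. Among CD45.1 members, cells with Eomes differed in Gzma, Gzmb, Ccr9, Il12rb2, Klf2 and Ccl4, as given below. In members without Eomes 61 genes passed, and 9 of the genes named here lost their call. The part of this mix in the donor differences was not tested further.

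Il12rb2, the signalling chain of the interleukin 12 receptor that Th1 cells induce, had 68.5 and 68.2 CPM in CD45.1 members and 429 and 430 CPM in CD45.2 members of recipients 1 and 2. The difference was 2.65 (SE 0.22, adjusted p = 8.7e-30) and passed under all 12 alternatives fitted. Among these, leaving out recipient 4 removed no sum and repeated the same fit. Il12rb2 was detected in 20.3% and 18.6% of CD45.1 members and in 68.3% and 51.3% of CD45.2 members. Of 13 Th1 and T-box genes, 11 were tested and 3 were higher, with a median of 0.60 against 0.00 over all genes. The others were Il18r1 (54.8 and 80.4 against 168 and 251 CPM; 1.63, SE 0.26) and Ifng, interferon gamma (222 and 251 against 378 and 371 CPM; 0.67, SE 0.18, adjusted p = 0.0076). Ifng did not pass under 7 of 12 alternatives and Il18r1 under 2, and Runx3 stood at 0.10 (SE 0.17, adjusted p = 0.97).

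Granzymes other than the one in the rule were higher in CD45.2 members. Gzmb had 309 and 734 CPM in CD45.1 and 2329 and 1670 CPM in CD45.2 members (2.0, SE 0.12, adjusted p = 2.8e-55). It was detected in 37.3% and 44.3% of CD45.1 and 77.8% and 64.1% of CD45.2 members. Gzma had 90.4 and 541 against 2619 and 964 CPM (2.51, SE 0.14), with the single cell named above behind much of the recipient 1 value. Gzmb did not pass under 1 of 12 alternatives, DESeq2, and Gzma under 2. Nkg7 did not pass (-0.22, SE 0.12, adjusted p = 0.5). Of 16 granule genes, 13 were tested, 2 were higher and 1 was lower, with a median of -0.08.

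Homing receptors split. Of 20, 13 were tested, 3 were higher and 1 lower, with a median of 0.19. Ccr9 had 255 and 207 against 524 and 785 CPM (1.48, SE 0.17, adjusted p = 5.2e-16) and Ccr2, a receptor for inflammatory chemokines, 11 and 26.8 against 75.6 and 132 CPM (2.44, SE 0.39). Cd69, which holds cells in tissue, was higher by 0.45 (SE 0.14, adjusted p = 0.035; not under 8 of 12 alternatives). Itga4, the marker that was higher in members than in the cells for comparison, was lower in CD45.2 members. It had 523 and 495 against 232 and 311 CPM (-0.93, SE 0.17, adjusted p = 4.2e-06). It did not pass under 3 of 12 alternatives.

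Of 20 type 1 regulatory and coinhibitory genes, 15 were tested, 5 were higher and none was lower, with a median of 0.62. Maf, a transcription factor of interleukin 10 producing cells, had 340 and 478 against 927 and 869 CPM (1.15, SE 0.15, adjusted p = 2.8e-12). Ikzf2, which encodes Helios, was higher by 1.46 (SE 0.28) and Icos by 0.81 (SE 0.18). They did not pass under 3 and 5 of 12 alternatives. Of the coinhibitory receptors, Ctla4 passed (0.62, SE 0.16, adjusted p = 0.0038), but its animals went opposite ways, with 222 and 612 CPM in CD45.1 and 758 and 442 CPM in CD45.2 members of recipients 1 and 2. Pdcd1 and Lag3 did not pass.

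The BCL2 family showed 1 gene in each direction among 9 tested. Bcl2, the survival factor, had 570 and 468 CPM in CD45.1 and 234 and 195 CPM in CD45.2 members (-1.27, SE 0.17, adjusted p = 1.4e-10). Bcl2l1, which encodes BCL-XL, was low and went the other way, with 8.21 and 12.2 against 63.4 and 43.8 CPM (2.35, SE 0.54). The sums of the donors did not overlap for either gene. With 2 sums per donor, in genes that had passed the test, this adds no support. Bcl2 did not pass under 1 of 12 alternatives and Bcl2l1 under 2 of 11.

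Lower in CD45.2 members were also Klf2, a factor of recirculating cells (95.8 and 141 against 41.5 and 43.8 CPM; -1.43, SE 0.33), Cd27 (-1.04, SE 0.29) and the receptor Cd160 (-1.06, SE 0.20). They did not pass under 4, 6 and 3 of 12 alternatives. Of 4 chemokines tested, Ccl4 (-1.23, SE 0.19) and Ccl3 (-1.52, SE 0.47) were lower. Ccl4 did not pass under 4 of 12 alternatives and Ccl3 under 4 of 8. Single cells held 59.0% and 80.6% of the Ccl4 UMIs in CD45.1 and CD45.2 members of recipient 2, and with UMIs per cell capped the Ccl4 difference was -0.50 and did not pass. Ifitm2, an interferon-induced membrane protein, had the largest rise of the named genes, from 19.2 and 26.8 to 80.5 and 375 CPM (3.24, SE 0.33). Ctse, within 10 Mb of Ptprc, fell by 3.30 (SE 0.68). Of the 196 genes, 3 lay within 10 Mb of Ptprc and 5, Bcl3 included, within 10 Mb of Bcl3. Ribosomal protein genes were 60 of the 196 genes, 56 of them lower, and ribosomal transcripts were 26.7% and 28.8% of UMIs in CD45.1 against 22.1% and 23.7% in CD45.2 members; 9 of the 196 were mitochondrial. Of 14 dissociation and stress genes, Fosb (0.50, SE 0.16) and Dusp1 (0.84, SE 0.17) were higher. Of 3 gamma-delta T cell markers tested, 2 passed as lower, with a median of -1.08. Of these, Tcrg-C4 fell in both animals, while Tcrg-C2 had 381 and 134 CPM in CD45.1 and 63.4 and 171 CPM in CD45.2 members, so its animals went opposite ways. The part of these shifts in the other differences was not tested.

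**Figure D4:**
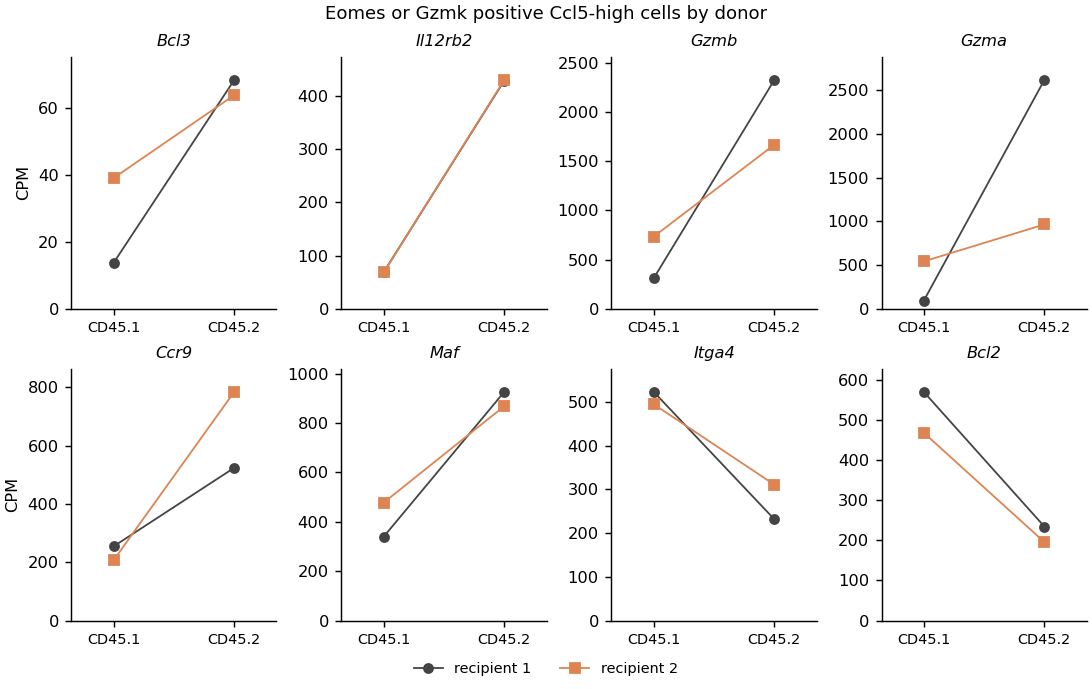
CPM after TMM scaling (y axis, from 0) of 8 genes in CD45.1 and CD45.2 members, with 1 line for each of recipients 1 and 2. Both lines rise from CD45.1 to CD45.2 for Bcl3, Il12rb2, Gzmb, Gzma, Ccr9 and Maf and fall for Itga4 and Bcl2.

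The same contrast in Ccl5-high cells without Eomes or Gzmk called 449 of 9572 genes (4.69%), 229 higher (2.39%) and 220 lower (2.3%), from more cells per sum. There Gzmb (0.92, SE 0.07), Ccr9 (0.87, SE 0.09), Maf (0.84, SE 0.08), Ikzf2 (1.64, SE 0.16) and Bcl3 (1.70, SE 0.23) were higher in CD45.2 cells, and Bcl2 (-0.84, SE 0.08) and Itga4 (-0.91, SE 0.10) lower. These genes thus had the signs they had in members. Of 10 Th17 genes tested there, 7 were higher and 1 lower in CD45.2 cells, with a median of 1.04, and of 12 proliferation genes 5 were higher, with a median of 0.79. Markers of other cell types were higher too: 3 of 5 B and plasma cell genes tested (Igkc, Jchain and Igha, median 2.15), Cd8a, the myeloid marker Cd74, and the epithelial and endothelial markers Krt18 and Pecam1. Igkc had 1.37 and 33.0 CPM in CD45.1 and 318 and 70.1 CPM in CD45.2 cells. The part of these transcripts in the donor difference was not tested beyond leaving out barcodes with a CD8 transcript. Whether the donor difference itself differed between the 2 kinds of cell was tested by an interaction term over 6916 genes. It called 1 gene (0.0145%), Il12rb2, while 367 genes had an unadjusted p under 0.05; DESeq2 also called 1 and the fit without the block 0. The Il12rb2 donor difference was 0.87 (SE 0.11) in the cells for comparison and larger in members by 1.74 (SE 0.25, edgeR adjusted p = 0.0095). In CD45.1 cells Il12rb2 was lower in members than in the cells for comparison (66.8 against 190 CPM and 67.3 against 138 CPM), and in CD45.2 cells higher (416 against 335 CPM and 422 against 266 CPM). The interaction for Gzmb was 0.98 (SE 0.30, adjusted p = 0.7), for Bcl3 -0.43 (SE 0.48, adjusted p = 0.98) and for Itga4 -0.05 (SE 0.20, adjusted p = 1), none of which passed. The Gzmb interaction passed under 2 of 12 alternatives, without the low-count filter and at 3 or more cells per sum.

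Within the members, cells with Eomes were compared with cells that held Gzmk only. Only CD45.1 cells of recipients 1 and 2 had at least 10 of both (21 and 38, and 23 and 47). Of 3262 genes, 33 (1.01%) passed, 17 higher (0.521%) and 16 lower (0.49%) in cells with Eomes. The fit has 1 residual degree of freedom. Neither DESeq2 nor the fit on thinned counts called any gene, with 28 and 62 at an unadjusted p under 0.05. The fit without the block called 19, so the values below rest on edgeR alone. Genes named for the largest rises and falls had to move the same way in both animals, so that agreement adds no support.

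Granzymes A and B and 2 integrin chains were lower in cells with Eomes. Gzma had 47.2 and 15.2 CPM with Eomes and 120 and 818 CPM with Gzmk only (-3.76, SE 0.40), and Gzmb 291 and 198 against 337 and 1022 CPM (-1.35, SE 0.24, adjusted p = 1.1e-05). The gap in Gzmb lay mostly in recipient 2. Of 20 homing genes, 12 were tested, 1 was higher and 3 were lower, with a median of -0.43 against 0.02 over all genes. Itgae, the CD103 chain that binds epithelial E-cadherin, had 23.6 and 7.61 against 106 and 186 CPM (-3.18, SE 0.57), and Itga1, a collagen-binding chain, 197 and 45.6 against 275 and 245 CPM (-1.16, SE 0.31, adjusted p = 0.018; not under 5 of 9 alternatives). Ccr9 was lower too, with 165 and 22.8 against 319 and 305 CPM (-1.79, SE 0.32). Il12rb2 had 23.6 and 0 against 97.6 and 104 CPM (-3.06, SE 0.71). These rest on 3 and 0 UMIs with Eomes and 22 and 28 with Gzmk only, and 1 cell held 11 of the 22. Xcl1 (-1.61, SE 0.28), Cd160 (-1.48, SE 0.27) and the activating receptor Cd226 (-1.71, SE 0.34) were also lower in both animals.

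Of 14 naive and central memory genes, 7 were tested, 2 were higher in cells with Eomes and none was lower, with a median of 0.69. The others, among them Il7r and Tcf7, did not pass. Klf2 had 213 and 228 against 35.5 and 104 CPM (1.64, SE 0.33, adjusted p = 1.7e-04), and Lef1, a partner of TCF1, 78.7 and 129 against 22.2 and 18.6 CPM (2.33, SE 0.62, adjusted p = 0.021). Gpr183, an oxysterol receptor that positions lymphocytes, had 197 and 494 against 93.1 and 167 CPM (1.38, SE 0.28). Both animals moved the same way for each of these genes, which was a condition for naming them.

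Nr4a2 (1.03, SE 0.26) and Sh2d1a (1.05, SE 0.28), both higher in members as a whole, were higher again in members with Eomes, but did not pass under 4 and 6 of 9 alternatives. Ccl4 had 834 and 859 against 386 and 78.1 CPM (2.06, SE 0.23), but with UMIs per cell capped the difference was 0.81 and did not pass; Ccl3 (1.95, SE 0.56, adjusted p = 0.047) went the same way. Esm1 was higher by 3.27 (SE 0.50) but is uncertain, since it lies inside the annotated span of Gzmk (chr13:113171608-113225908) on the other strand. Itga4 (0.44, SE 0.21, adjusted p = 0.54) and Slamf7 (-0.18, SE 0.36, adjusted p = 0.98) did not pass.

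**Figure D5:**
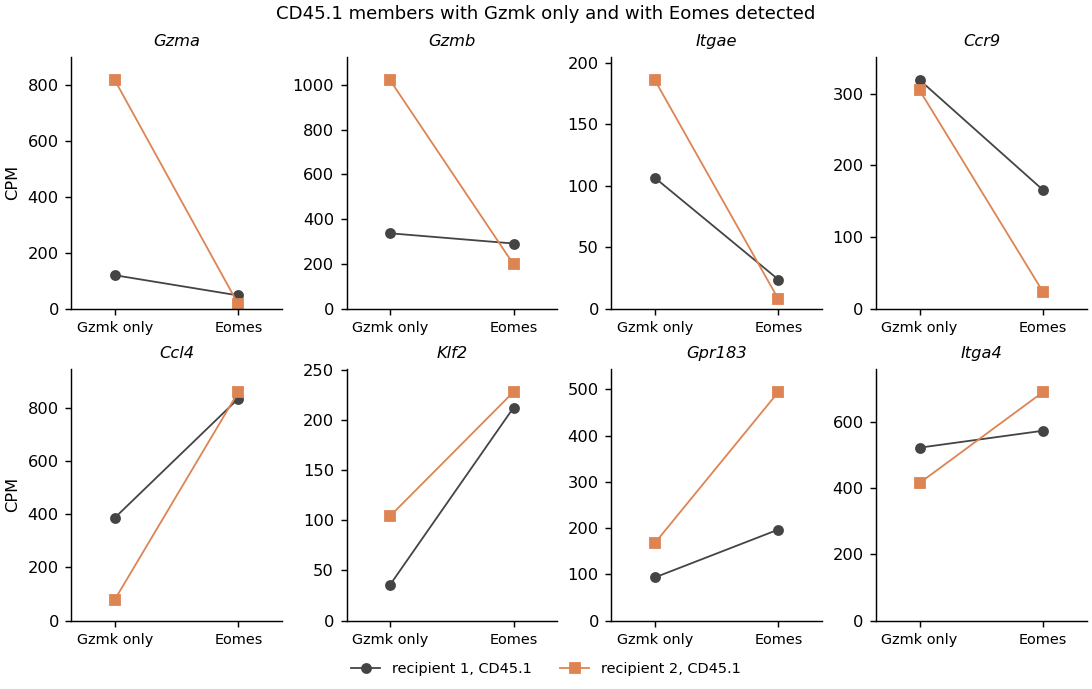
CPM after TMM scaling (y axis, from 0) of 8 genes in CD45.1 members with Gzmk only and with Eomes detected, with 1 line for each of recipients 1 and 2. Both lines fall for Gzma, Gzmb, Itgae and Ccr9 and rise for Ccl4, Klf2 and Gpr183, while the Itga4 difference did not pass the test.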

How the data were processed

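Droplet single-cell RNA libraries of sorted CD4 T cells from 4 recipients, made with the 10x Genomics 3' chemistry per the labels' protocols, were read as deposited. The matrices hold raw UMI counts per gene or antibody tag and barcode, without normalization, per the file headers; the submitters' processing notes name Cell Ranger 6.1.1 and mm10, and no later filter is named there. Barcodes with at least 500 genes and at most 10% mitochondrial UMIs were kept. No doublet caller was run; an alternative dropped cells whose UMIs exceeded the library median more than 3-fold. At most 33 barcodes were shared between libraries, 0 with the same UMI total.

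The cells, lists and tests were chosen with earlier results of these data known. Counts were summed per recipient, donor and class (at least 10 cells) and tested with edgeR 4.0.16 (R 4.3.3; quasi-likelihood, TMM, default low-count filter, Benjamini-Hochberg) with the recipient-donor pair or the recipient as a block. Both sums of a block come from the same animal; their deviations correlated at 0.159 to 0.254 between classes and at 0.0665 between donors' members. DESeq2 1.42.0 was an alternative. Shares were compared over recipients by an exact sign-flip test, after adding 0.5 to each cell count. Gene positions came from GENCODE M21 by identifier (31011 of 31053 matched). For thinning, 3000 UMIs were drawn per cell, and cells with fewer were dropped. For the alternative on thinned counts, cells were also classed anew on those counts. Members then numbered 40 and 48 among CD45.1 and 35 and 26 among CD45.2 cells of recipients 1 and 2. Changes under it thus cover other cells as well as fewer UMIs. Thinned shares of cells with a transcript kept the classes from full counts. Capping set UMIs per gene at the 95th percentile over all members and cells for comparison, at least 3. Cells without the gene were included in that percentile. The fits were tested on simulated data.

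Genes are named by rule: Bcl3 and the proposed markers; per list up to 4 that passed, by size, and up to 2 abundant ones that did not; and up to 12 rises and 12 falls whose mean log2 CPM reached 5, with 1 direction in every pair. From these, the genes with a described role were taken for the text. Some results are not reported here.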

Additional observations from a re-analysis of the deposited data

Results flagged for a closer look

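The donor difference of Il12rb2 differed between the 2 kinds of Ccl5-high cell. It was larger in Eomes or Gzmk positive cells than in cells without either by 1.74 on the log2 scale (SE 0.25, edgeR adjusted p = 0.0095), in 2 of 2 recipients, and it was the 1 gene of 6916 to pass. The edgeR adjusted p was 0.69 when cells were thinned to 3000 UMIs and classed anew (1.32), and without the block it did not pass either (1.75).

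Recipient 3, which entered no comparison apart from the alternative that adds it to the shares, held 5 cells that met the rule among 3585 with a donor call (0.139%, above the 0.0837% that a count of 0 would allow). Of these, 3 were among its 30 CD45.1 cells and 2 among its 3555 CD45.2 cells.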

How the results depend on the processing

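The log2 odds ratio of membership had the same sign in every recipient under all alternatives run. Leaving out 1 recipient gave means of -3.87 to -3.16, adding recipient 3 gave -4.51, and among Ccl5-high cells leaving out 1 recipient gave -2.96 to -2.35. For members against the cells for comparison, the 61 genes became 26 with DESeq2, 129 without the low-count filter, 1 without the replicate block, 22 on thinned counts, 303 with donors summed, 14 in CD45.1 and 22 in CD45.2 cells alone, 112 without exclusions among the cells for comparison, 24 at 10 or more Ccl5 UMIs, and 26 without recipient 2. Without recipient 1, 15 of the 31 named genes that passed lost their call. Leaving out recipient 4 removed no sum from any fit at 10 cells per sum, so it repeats the main fits. Each of the 31 genes named in the text that passed failed to pass under at least 1 alternative. Gzma turned to -1.09e-05 on thinned counts, -0.10 without exclusions and -0.16 at 3 or more cells per sum; Igkc turned to 0.67 in CD45.1 cells alone and 0.59 with UMIs capped.

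For the donor difference in members, the 196 genes became 5 with DESeq2, 19 without the replicate block, 71 on thinned counts, 89 without barcodes of high UMI count, 101 at 3 or more cells per sum and 61 in members without Eomes; Il12rb2, Ccr9 and Maf passed under every alternative. In the cells for comparison, the 449 genes became 77 with DESeq2, 32 without the block, 217 on thinned counts and 220 at 3 or more cells per sum. The interaction's 1 gene became 14 without the filter, 0 without the block, 4 on thinned counts, 6 at 3 or more cells per sum, 2 without CD8 transcripts, 2 with UMIs capped and 4 in members without Eomes. The 33 genes of the Eomes comparison became 0 with DESeq2, 19 without the block and 0 on thinned counts. The cause of these changes was not tested, beyond the fewer genes tested on thinned counts. Some alternatives were chosen after seeing the data: 3 cells per sum, CD8 transcripts, 10 Ccl5 UMIs, robust dispersion, members without Eomes, and capping. At 10 cells per sum, no donor, interaction or Eomes fit could leave out recipient 1 or 2, since no residual degrees of freedom remained. Recipient 4 entered only the fits at 3 or more cells per sum, for which no recipient was left out. Few members limit precision: their sums held 59 and 70 CD45.1 cells and 63 and 39 CD45.2 cells in recipients 1 and 2.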

Other observations

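Some genes outside the lists stood out by the naming rule. Hist1h1b, a linker histone made in dividing cells, was lower in members than in Ccl5-high cells without Eomes or Gzmk in 4 of 4 pairs (-2.04, SE 0.27, edgeR adjusted p = 4.7e-05), while none of the 9 tested proliferation genes passed. Bik, a pro-apoptotic relative of BCL2 (-1.29, SE 0.29), the interferon-induced Ifitm3 (-1.19, SE 0.28) and Tnfsf8, which encodes CD30 ligand (-1.10, SE 0.23), were lower as well. Dnajc9, a histone chaperone (0.68, SE 0.16), and the small interferon-inducible gene AW112010 (0.28, SE 0.06) were higher; AW112010 had 1739 to 2385 CPM in members and 1496 to 1809 CPM in the other cells, and did not pass under 10 of 19 alternatives.

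Between the donors' members, Ahrr, the repressor of the aryl hydrocarbon receptor, had 8.21 and 7.31 CPM in CD45.1 and 68.3 and 43.8 CPM in CD45.2 members of recipients 1 and 2 (2.79, SE 0.57). Pim2, a survival kinase (2.47, SE 0.50), and Mki67, a marker of cycling cells (1.74, SE 0.40), were higher in CD45.2 members. Gnl3, a nucleolar protein, was lower, with 101 and 97.5 against 43.9 and 15.9 CPM (-1.64, SE 0.36). DESeq2 called none of these 4 genes. These are values only, and no explanation of them was tested.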
